A study of Homo sapiens with 12 samples.

Results

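The genes described here encode collagen chains and were taken as every row of the deposited read count table whose gene symbol had the form COL, a number, A and a number, such as COL4A1. This rule, which used names and no measured value, found 44 genes among 60591 in the table. Of these, 34 passed the expression filter and were tested for differences between groups, and the 10 that did not pass were COL1A2, COL2A1, COL6A5, COL6A6, COL9A1, COL10A1, COL19A1, COL20A1, COL24A1 and COL25A1. A gene passed when enough libraries of any group held reads for it, so a chain seen in only one cell line could pass through that line alone.

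Collagens are extracellular proteins whose polypeptides wind around each other as triple helices, and a given collagen is built either from copies of one chain or from chains of different genes. Fibrillar collagens form the cables of connective tissue, type IV collagens form the sheet of the basement membrane on which epithelial cells sit, and type VII and the transmembrane type XVII collagens fasten epithelial cells to that sheet. Chains are hydroxylated and folded in the endoplasmic reticulum, trimmed after secretion, cross-linked in the matrix and bound by integrin and discoidin domain receptors.

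Poly(A) RNA was sequenced from PC9 and H1650 cells, established lines of non-small cell lung cancer that respond differently to inhibitors of the epidermal growth factor receptor (EGFR), and the comparison asked which expression changes followed EGFR inhibition in each. The study describes both lines as carrying the same EGFR deletion mutation, and the labels call their genotype wild-type. The groups of each line were T0 cells, collected at 0 h in 0.1% DMSO, and cells collected at 36 h in 0.1 μM osimertinib or 10 μM erlotinib, both EGFR kinase inhibitors. Each of the 6 groups held 2 replicates, 12 libraries in all. The study describes the replicates as biological, without saying how the cultures were separated. No DMSO library was analysed here at 36 h, so a change with drug and a change with time in culture cannot be told apart, and the 2 drugs were given at different doses.

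Library totals ran from 17961765 to 26346187 reads. Levels are given as normalized CPM, a gene's reads per 1000000 reads of the library after scaling by library composition, and a count of 3 reads, used as the limit for a gene with none, corresponded to 0.116 to 0.168 CPM. The 6 transcriptional targets of EGFR signaling checked here, DUSP6 and ETV4 among them, all fell in PC9 cells with both drugs, whereas in H1650 cells 4 rose with erlotinib and 1, ETV4, fell with osimertinib. The 6 epithelial markers summed to between 6162 and 13300 CPM in every library. The 8 fibroblast markers summed to 2.17 to 3.38 CPM in PC9 at T0, 3.18 to 3.71 with erlotinib and 7.57 to 7.77 with osimertinib, and to 18.7 to 21.9, 7.79 to 7.91 and 12.03 to 12.25 CPM in the same order in H1650. Of these markers 4 passed the filter, TCF21 had no read in any library, and DCN and LUM had 2 and 1 reads over all 12. Most of the sum in H1650 was FAP (16.4 and 20.1 CPM at T0, 6.71 and 6.80 with erlotinib, 9.31 and 10.2 with osimertinib), a membrane protease of activated fibroblasts that some carcinoma cells also express. The 4 endothelial markers summed to 0.193 to 5.83 CPM and the 4 leukocyte markers to 0 to 0.839 CPM, and the part of any of these markers in the collagen values was not tested. In bulk RNA, fewer cells of a kind and less RNA per cell cannot be told apart.

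**Figure D1:**
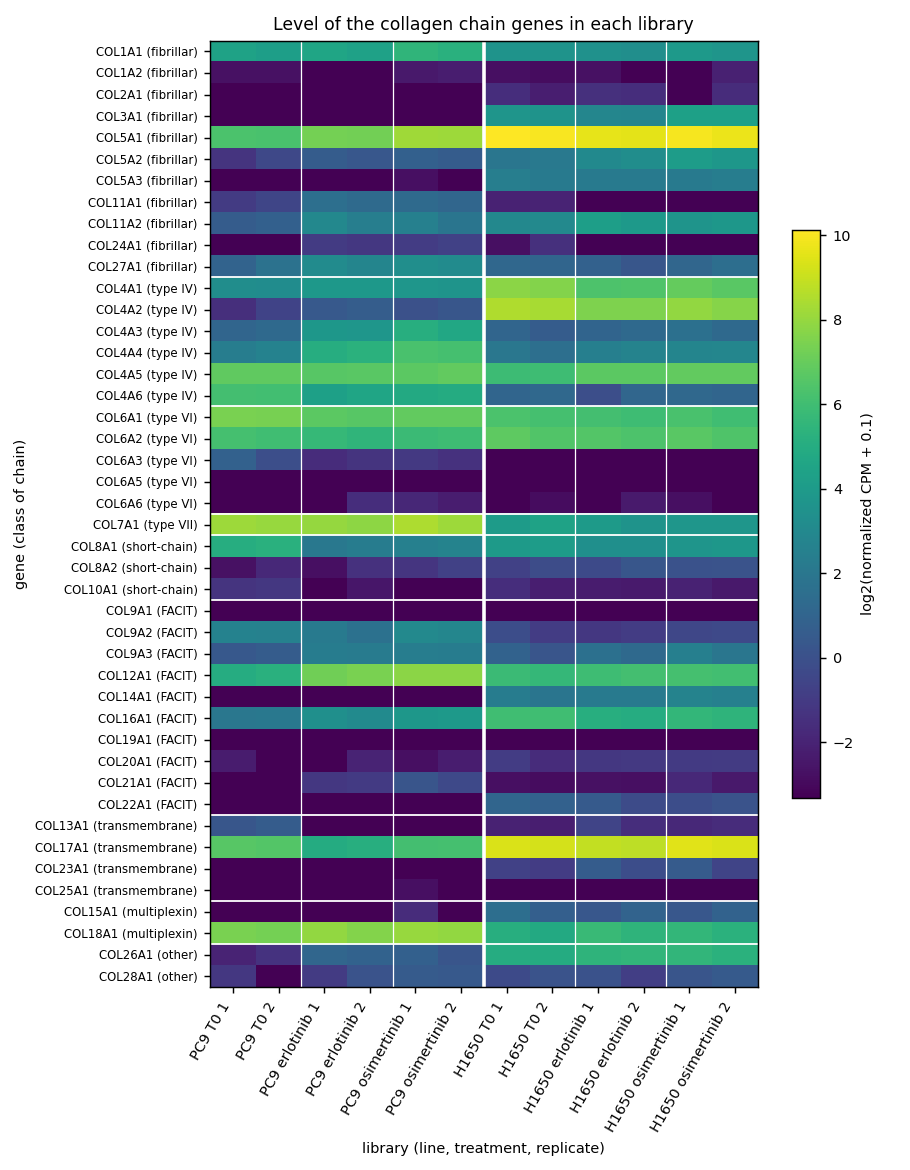
Level of each of the 44 collagen chain genes (rows, grouped by class of chain) in each of the 12 libraries (columns), drawn as log2 of normalized CPM plus a pseudocount of 0.1. COL5A1 and COL17A1 are the brightest rows in H1650, COL7A1 and COL18A1 are bright in PC9, and COL6A5, COL9A1 and COL19A1 are dark in all 12 libraries.

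The lines differed in which chains carried most of the collagen reads. Summed over the 44 genes, collagen reads made up 1184 and 1132 CPM in PC9 at T0, 1253 and 1186 CPM with erlotinib and 1733 and 1636 CPM with osimertinib. In H1650 the sum was 2891 and 2656 CPM at T0, 2095 and 2010 CPM with erlotinib and 2709 and 2369 CPM with osimertinib. The osimertinib libraries of PC9 thus lay above the other PC9 libraries, and the erlotinib libraries of H1650 lay below the other H1650 libraries.

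Levels were divided by gene length to set genes beside each other. The deposited length is 1 value per gene, so orders and ratios per kb depend on how well it matches the transcripts expressed. By this measure COL6A1 had the highest mean level at T0 in PC9, at 32.1 ± 0.865 CPM per kb (S.D., n = 2). It was followed by COL7A1 at 24.7 ± 1.33, COL18A1 at 19.5 ± 1.08, COL17A1 at 13.8 ± 0.751 and COL6A2 at 12.6 ± 0.824 CPM per kb. The last 2 of these overlapped within 1 S.D., and the others did not. In H1650 at T0, COL5A1 at 94.9 ± 7.16 and COL17A1 at 91.2 ± 2.98 CPM per kb overlapped within their S.D. and stood well above COL6A2 at 18.8 ± 2.98, COL4A2 at 18.2 ± 1.10, COL6A1 at 14.4 ± 1.20 and COL4A1 at 14.2 ± 0.954 CPM per kb. By reads, COL5A1 and COL17A1 made up 38.6% and 22.6% of all collagen CPM in the first T0 library of H1650, and 37.8% and 23.4% in the second. After drug the order in PC9 changed at the top, with COL18A1 first in both drugs (25.9 ± 3.97 CPM per kb with erlotinib and 29.9 ± 1.88 with osimertinib), although it overlapped COL7A1 within the S.D. in both. COL5A1, the eighth at T0 in PC9, was the fourth with erlotinib at 14.2 ± 0.364 CPM per kb and the third with osimertinib at 26.0 ± 0.618.

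Most tested chains, like most tested genes, changed with drug in PC9, in both directions. With erlotinib, 25 of the 34 tested chains passed an adjusted p under 0.05 (edgeR's quasi-likelihood test, Benjamini-Hochberg adjustment over 19108 genes), 16 higher and 9 lower, against 61.8% of all tested genes called in that comparison (32.7% higher and 29.1% lower). With osimertinib, 23 were called, 17 higher and 6 lower, against 61.4% of all genes (32.7% higher and 28.7% lower). In H1650, 18 chains were called with erlotinib, 8 higher and 10 lower, against 36.5% of all genes (18.0% higher and 18.5% lower), and 16 with osimertinib, 10 higher and 6 lower, against 35.7% (17.8% higher and 17.9% lower). DESeq2 called 15 chains higher and 7 lower of 37 tested with erlotinib in PC9, and 18 and 6 of 38 with osimertinib. In H1650 it called 7 higher and 10 lower of 33 with erlotinib, and 8 and 6 of 33 with osimertinib. Over all genes DESeq2 called 10550 of 21936 and 10546 of 22631 in PC9, and 5906 and 5789 of 18463 in H1650. The 34 chains tested by edgeR include COL3A1, COL14A1, COL22A1 and COL23A1, which had no reads in PC9, and COL6A3, which had none in H1650. Such a chain could not be called in the line where it had no reads. Log2 fold changes are given with their standard error. The median log2 fold change over the tested chains was 0.28 with erlotinib and 1.19 with osimertinib in PC9, beside 0.07 and 0.06 over all genes, and −0.20 and 0.23 in H1650, beside 0.01 and 0.00. These medians did not move when chains without reads in a group were set at the bound that a count of 3 reads gives.

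Read across both lines, 7 of the 34 chains rose in all 4 drug comparisons by edgeR (20.6%, against 8.47% of all genes): COL4A4, COL5A2, COL9A3, COL11A2, COL12A1, COL18A1 and COL26A1. By DESeq2 COL18A1 was not called with erlotinib in PC9 (adjusted p = 0.0768) or osimertinib in H1650 (adjusted p = 0.0823). With erlotinib in H1650, DESeq2 called 7 chains higher where edgeR called 8, and COL9A3 was not followed by name in DESeq2. None of the 34 chains fell in all 4 by edgeR with adjustment (against 9.16% of all genes) or by DESeq2, and 1 did at an unadjusted p under 0.05. A further 5 chains, COL4A1, COL4A2, COL5A1, COL11A1 and COL16A1, rose with both drugs in PC9 and fell with both in H1650 (14.7%, against 1.33% of all genes), although COL11A1 had only 3 and 4 reads in the H1650 T0 libraries. The opposite pattern was found for 0 chains by edgeR, with or without adjustment, and by DESeq2. It held for 0.947% of all genes with adjustment, too small a share for 0 of 34 to be read as a difference. The 6 chains called in no drug comparison (17.6%, against 23% of all genes) were COL5A3, COL8A2, COL14A1, COL15A1, COL22A1 and COL23A1. All of them except COL8A2 had at most 5 reads over the 6 PC9 libraries.

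**Figure D2:**
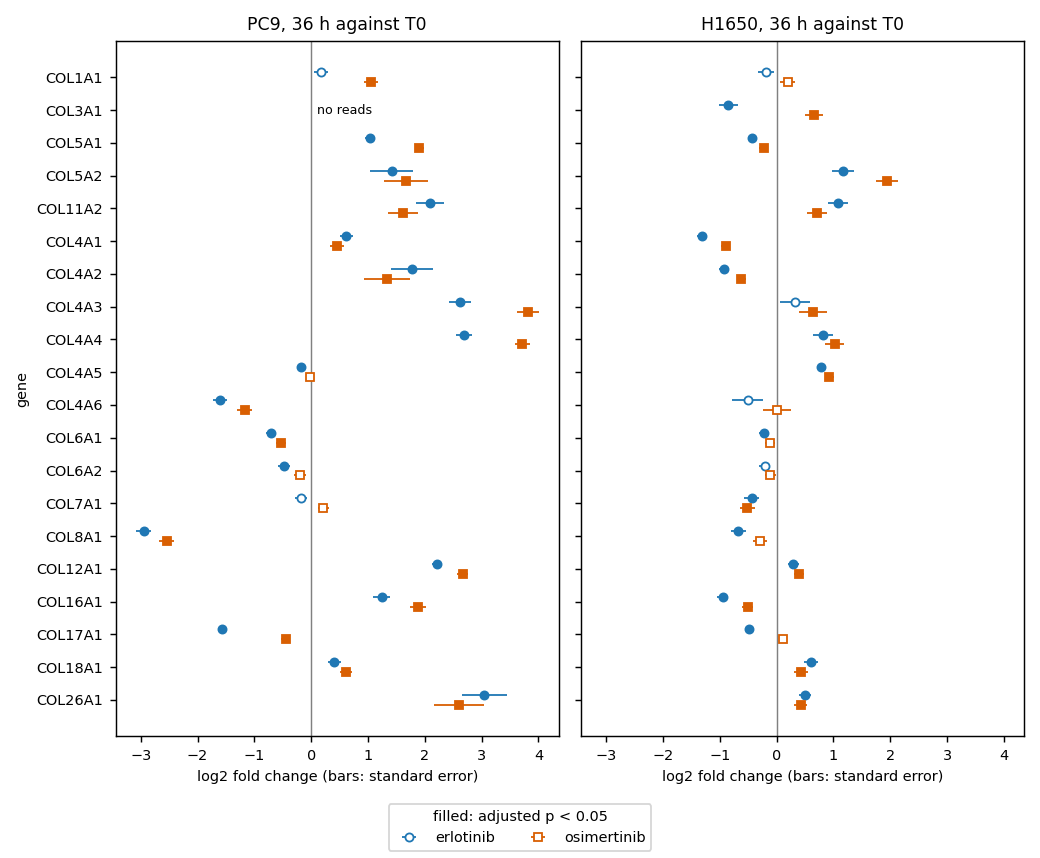
Log2 fold change with erlotinib (circles) and osimertinib (squares) against T0 for the 20 chains whose mean level reached 10 CPM in at least 1 group, in PC9 (left) and H1650 (right), with standard errors as bars and filled symbols for an adjusted p under 0.05. COL4A1, COL4A2, COL5A1 and COL16A1 lie right of 0 in PC9 and left of 0 in H1650, and COL3A1 had no reads in PC9.

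The 6 type IV genes lie as 3 pairs, each pair head to head on opposite strands, so that a short stretch of DNA separates the 2 start sites. RefSeq (GRCh38.p14) places the start of COL4A2 127 bases from that of COL4A1 on chromosome 13, the start of COL4A3 419 bases from that of COL4A4 on chromosome 2, and the start of COL4A5 380 bases from the nearer of 2 COL4A6 starts on chromosome X. In GENCODE 29 other first exons of both genes cover all but 2 of the bases between the COL4A1 and COL4A2 starts, so that stretch is not shown. The other pairs are shown because they held longer runs outside exons, and expression was not used in the choice. Both lines give DNA outside any GENCODE 29 exon upstream of the plus-strand gene, 5′ to 3′ on the plus strand. They are 111 bases at chr2:227164454-227164564, before COL4A3, and 250 bases at chrX:108439588-108439837, before COL4A5, with CCAAT and GGGCGG in capitals wherever either occurs on either strand.
COL4A3 and COL4A4: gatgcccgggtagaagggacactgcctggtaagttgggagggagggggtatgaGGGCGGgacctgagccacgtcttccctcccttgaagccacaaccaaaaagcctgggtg
COL4A5 and COL4A6: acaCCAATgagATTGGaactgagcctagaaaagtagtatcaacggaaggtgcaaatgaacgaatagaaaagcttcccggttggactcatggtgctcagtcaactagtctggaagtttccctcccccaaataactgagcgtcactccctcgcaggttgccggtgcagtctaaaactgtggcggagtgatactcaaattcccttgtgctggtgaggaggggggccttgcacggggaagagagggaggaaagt

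The stretch before COL4A3 held 1 GGGCGG and no CCAAT, and the stretch before COL4A5 held no GGGCGG and 2 CCAAT, on opposite strands. The third motif searched on both strands, TATAAA, was in neither. G and C made up 61.3% of the first and 51.2% of the second. Over all 35116 RefSeq promoter windows of 300 bases (250 before to 50 after a start), 34.6% held CCAAT, 45.0% held GGGCGG and 11.5% held TATAAA, and of the 44 windows of the 32 collagen chains that had one, 31.8%, 54.5% and 18.2% did. A match is a description of the letters and not a binding site, and these stretches are shorter than the windows.

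COL4A1 and COL4A2, whose products form the common network of every basement membrane, moved together within each line and in opposite directions between the lines. In PC9 cells, COL4A1 read 9.43 and 9.18 CPM at T0, 14.5 and 14.1 CPM with erlotinib and 13.3 and 12.2 CPM with osimertinib. COL4A1 in H1650 was at 219 and 199 CPM at T0, 81.2 and 85.8 CPM with erlotinib and 123 and 101 CPM with osimertinib. The groups did not overlap: each drug library of PC9 was above both T0 libraries, and each drug library of H1650 below them. The log2 changes were 0.62 ± 0.12 (adjusted p = 5.98e-05) with erlotinib and 0.46 ± 0.12 (adjusted p of 0.00233) with osimertinib in PC9, and −1.32 ± 0.09 (adjusted p of 1.41e-12) and −0.90 ± 0.08 (adjusted p of 2.06e-09) in H1650.

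In H1650 cells, COL4A2 read 365 and 335 CPM at T0, 187 and 181 CPM with erlotinib and 247 and 207 CPM with osimertinib. COL4A2 in PC9 was at 0.252 and 0.543 CPM at T0, 1.25 and 1.48 CPM with erlotinib and 0.925 and 1.12 CPM with osimertinib. COL4A2 thus stood far higher in H1650 than in PC9, where 5 to 38 reads per library lay behind its values. It fell by a log2 change of −0.93 ± 0.08 (adjusted p = 7.67e-10) with erlotinib and −0.62 ± 0.08 (adjusted p of 7.56e-07) with osimertinib in H1650, and rose by 1.77 ± 0.37 (adjusted p of 0.000128) and 1.33 ± 0.41 (adjusted p of 0.00571) in PC9. The last call was lost without the first PC9 T0 library, at 0.89 (adjusted p = 0.105). Per kb, COL4A1 was 0.571 to 0.788 times COL4A2 in the 6 H1650 libraries and 12.5 to 49.2 times COL4A2 in the 6 PC9 libraries.

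COL4A3 and COL4A4, which assemble with COL4A5 into the type IV network of kidney, lung and other specialized basement membranes, had the largest rises of the type IV genes in PC9. In PC9 cells, COL4A3 read 2.02 and 2.32 CPM at T0, 13.6 and 13.1 CPM with erlotinib and 34.3 and 26.9 CPM with osimertinib. COL4A4 in PC9 was at 5.14 and 6.07 CPM at T0, 33.2 and 39.0 CPM with erlotinib and 76.1 and 71.5 CPM with osimertinib. In both genes the erlotinib libraries were above T0 and the osimertinib libraries above erlotinib, with no overlap. COL4A3 rose by a log2 change of 2.62 ± 0.20 (adjusted p = 3.71e-12) with erlotinib and 3.82 ± 0.19 (adjusted p of 3.98e-16) with osimertinib, and COL4A4 by 2.69 ± 0.14 (adjusted p of 5.36e-16) and 3.72 ± 0.13 (adjusted p of 2.53e-19).

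In H1650 the same pair stayed at or below 7.08 CPM in every library. In H1650 cells, COL4A3 read 2.01 and 1.43 CPM at T0, 1.91 and 2.33 CPM with erlotinib and 3.01 and 2.32 CPM with osimertinib. COL4A4 in H1650 was at 3.96 and 2.93 CPM at T0, 5.57 and 6.42 CPM with erlotinib and 6.83 and 7.08 CPM with osimertinib. COL4A4 rose by a log2 change of 0.82 ± 0.17 (adjusted p = 0.000435) with erlotinib and 1.03 ± 0.17 (adjusted p of 1.85e-05) with osimertinib, while for COL4A3 the change with erlotinib was 0.33 ± 0.26 (adjusted p of 0.359) and that with osimertinib 0.64 ± 0.25 (adjusted p of 0.044). The last value lost its call in DESeq2 (adjusted p = 0.0842), with no filter on low counts (adjusted p = 0.0638), with each line fitted on its own (adjusted p = 0.106), without the first osimertinib library (0.45, adjusted p = 0.309) and without the second T0 library of H1650 (0.40, adjusted p = 0.350). Per kb, COL4A3 was 0.362 to 0.560 times COL4A4 in all 12 libraries, while COL4A4 itself ranged from 2.93 to 76.1 CPM. GENCODE 29 also places an antisense transcript over 120 exon bases of COL4A3.

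COL4A5 and COL4A6 did not move together. In PC9 cells, COL4A6 read 68.3 and 65.4 CPM at T0, 20.2 and 23.6 CPM with erlotinib and 28.2 and 31.1 CPM with osimertinib. COL4A5 in PC9 was at 115 and 113 CPM at T0, 97.6 and 104 CPM with erlotinib and 107 and 118 CPM with osimertinib. COL4A6, the partner of COL4A5 in skin and smooth muscle basement membrane, fell by a log2 change of −1.61 ± 0.13 (adjusted p = 6.95e-12) with erlotinib and −1.17 ± 0.12 (adjusted p of 3.1e-09) with osimertinib. For COL4A5 the log2 changes were −0.17 ± 0.07 (adjusted p = 0.0457) and −0.02 ± 0.07 (adjusted p of 0.866), and the first lost its call when either T0 library or the first erlotinib library of PC9 was left out (−0.13 to −0.19, adjusted p = 0.108 to 0.252), without the second T0 library of H1650 (adjusted p = 0.0515) and when each library had to hold 10 counts (−0.12, adjusted p = 0.106).

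In H1650 cells, COL4A5 read 60.4 and 62.6 CPM at T0, 105 and 107 CPM with erlotinib and 117 and 117 CPM with osimertinib. COL4A6 in H1650 was at 1.96 and 2.20 CPM at T0, 0.826 and 2.05 CPM with erlotinib and 2.20 and 2.00 CPM with osimertinib. COL4A5 rose in H1650 by a log2 change of 0.79 ± 0.08 (adjusted p = 3.39e-09) with erlotinib and 0.93 ± 0.08 (adjusted p of 1.69e-10) with osimertinib, and every drug library was above both T0 libraries. COL4A6 was at a log2 change of −0.51 ± 0.28 (adjusted p = 0.158) and 0.01 ± 0.25 (adjusted p of 1.0), with the first erlotinib library below all others. Per kb, COL4A5 was 1.31 and 1.35 times COL4A6 at T0 in PC9, 2.96 to 3.78 times with drug, and 22.3 to 99.4 times in the 6 H1650 libraries.

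**Figure D3:**
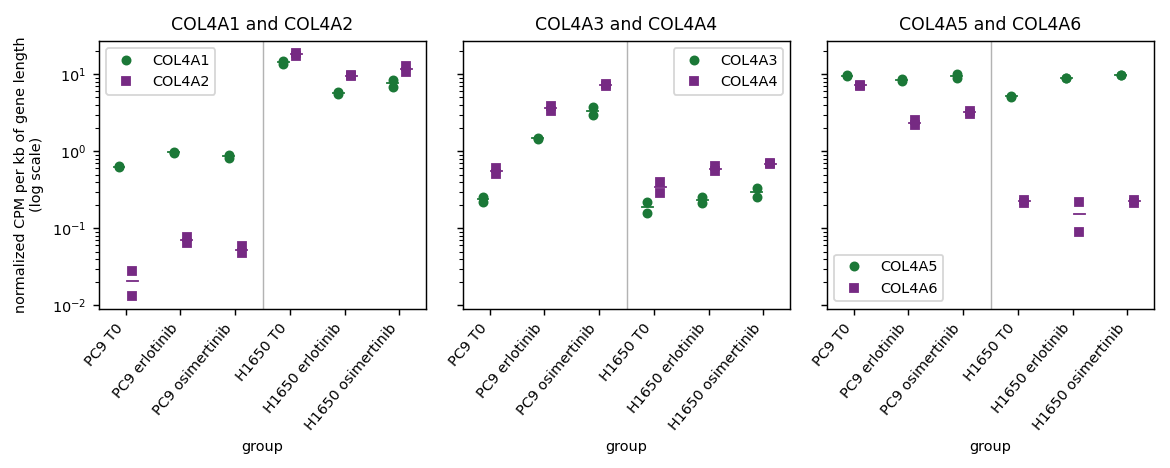
Normalized CPM per kb of gene length (log scale) of the 6 type IV genes in each library, by pair, with points for the 2 replicates of a group and a line at their mean. COL4A3 and COL4A4 keep a near-constant distance in all 6 groups, COL4A2 crosses from far below COL4A1 in PC9 to above it in H1650, and COL4A6 drops away from COL4A5 in PC9 with both drugs.

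COL17A1 and COL7A1, the chains of the structures that hold epithelial cells to the basement membrane, differed in level between the lines at T0, COL17A1 being higher and COL7A1 lower in H1650. In PC9 cells, COL17A1 read 100.1 and 92.6 CPM at T0, 31.2 and 33.9 CPM with erlotinib and 69.5 and 71.5 CPM with osimertinib. COL17A1 in H1650 was at 652 and 623 CPM at T0, 467 and 443 CPM with erlotinib and 735 and 647 CPM with osimertinib. COL17A1, a transmembrane component of hemidesmosomes, fell in PC9 by a log2 change of −1.56 ± 0.08 (adjusted p = 1.43e-15) with erlotinib and −0.45 ± 0.08 (adjusted p of 1.49e-05) with osimertinib. In H1650 it fell by a log2 change of −0.49 ± 0.07 (adjusted p = 5.17e-06) with erlotinib and was at 0.12 ± 0.07 (adjusted p of 0.232) with osimertinib, where the libraries overlapped those of T0.

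In PC9 cells, COL7A1 read 284 and 263 CPM at T0, 255 and 227 CPM with erlotinib and 349 and 284 CPM with osimertinib. COL7A1 in H1650 was at 16.4 and 21.2 CPM at T0, 16.05 and 11.96 CPM with erlotinib and 13.3 and 13.1 CPM with osimertinib. COL7A1, the chain of anchoring fibrils, had no call in PC9, at a log2 change of −0.18 ± 0.10 (adjusted p = 0.116) with erlotinib and 0.21 ± 0.10 (adjusted p of 0.067) with osimertinib, although no drug library lay within the range of T0. In H1650 it fell by a log2 change of −0.44 ± 0.13 (adjusted p = 0.0117) and −0.52 ± 0.13 (adjusted p of 0.0032). The erlotinib call was lost without the second T0 library (−0.23, adjusted p = 0.280) or the second erlotinib library (−0.24, adjusted p = 0.243), and the osimertinib call without the second T0 library (−0.31, adjusted p = 0.134).

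COL6A1 and COL6A2, which with COL6A3 make the beaded microfibrils of type VI collagen, fell in PC9. In PC9 cells, COL6A1 read 174 and 167 CPM at T0, 108 and 101 CPM with erlotinib and 117 and 118 CPM with osimertinib. COL6A2 in PC9 was at 70.5 and 64.3 CPM at T0, 51.6 and 44.9 CPM with erlotinib and 57.4 and 60.7 CPM with osimertinib. COL6A1 fell by a log2 change of −0.71 ± 0.09 (adjusted p = 3.4e-08) with erlotinib and −0.54 ± 0.09 (adjusted p of 3.64e-06) with osimertinib, and its groups did not overlap. COL6A2 fell by a log2 change of −0.48 ± 0.10 (adjusted p = 0.000221) with erlotinib and was at −0.19 ± 0.10 (adjusted p of 0.112) with osimertinib.

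In H1650 cells, COL6A1 read 80.9 and 71.9 CPM at T0, 68.6 and 62.0 CPM with erlotinib and 77.4 and 63.6 CPM with osimertinib. COL6A2 in H1650 was at 112 and 89.3 CPM at T0, 92.2 and 81.5 CPM with erlotinib and 101 and 84.8 CPM with osimertinib. Only the erlotinib change of COL6A1 was called in H1650, at a log2 change of −0.23 ± 0.09 (adjusted p = 0.0475), and it lost its call without the first T0 library (−0.14, adjusted p = 0.354) or the second erlotinib library (−0.16, adjusted p = 0.290), and had an adjusted p of 0.0519 to 0.0558 when any 1 of 4 PC9 libraries was left out. It was also lost when each library had to hold 10 counts (adjusted p = 0.0654) and with each line fitted on its own (adjusted p = 0.0657). The other log2 changes were −0.12 ± 0.09 (adjusted p = 0.333) for COL6A1 with osimertinib and −0.21 ± 0.10 (adjusted p of 0.106) and −0.11 ± 0.10 (adjusted p of 0.419) for COL6A2. The third chain, COL6A3, had 77 reads in all over the 6 PC9 libraries and none in H1650. It read 1.71 and 0.839 CPM at T0 in PC9 and 0.224 to 0.370 CPM in the 4 drug libraries, and it fell by a log2 change of −2.21 ± 0.64 (adjusted p = 0.00434) and −1.94 ± 0.64 (adjusted p of 0.0114). COL6A6 had 12 reads in PC9 and 4 in H1650, and COL6A5 had none.

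Among fibrillar chains, COL5A1 carried the largest share of collagen reads in all 6 H1650 libraries and rose in PC9 with both drugs. In PC9 cells, COL5A1 read 79.0 and 75.9 CPM at T0, 162 and 156 CPM with erlotinib and 295 and 285 CPM with osimertinib. COL5A1 in H1650 was at 1116 and 1003 CPM at T0, 800.1 and 768 CPM with erlotinib and 968 and 839 CPM with osimertinib. COL5A1, a chain of type V collagen that helps to start and limit the width of collagen fibrils, rose in PC9 by a log2 change of 1.03 ± 0.08 (adjusted p = 4.21e-12) with erlotinib and 1.91 ± 0.08 (adjusted p of 6.91e-18) with osimertinib, in steps without overlap. In H1650 it fell by a log2 change of −0.43 ± 0.07 (adjusted p = 2.98e-05) with erlotinib and −0.23 ± 0.07 (adjusted p of 0.0157) with osimertinib. The last call was lost without the first T0 library (−0.15, adjusted p = 0.243) or the second osimertinib library (−0.13, adjusted p = 0.318).

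In H1650 cells, COL5A2 read 3.78 and 4.17 CPM at T0, 8.36 and 9.54 CPM with erlotinib and 16.9 and 13.9 CPM with osimertinib. COL5A2 in PC9 was at 0.302 and 0.642 CPM at T0, 1.39 and 1.17 CPM with erlotinib and 1.62 and 1.40 CPM with osimertinib. COL5A2, the other chain of the main type V trimer, rose in H1650 by a log2 change of 1.17 ± 0.20 (adjusted p = 2.82e-05) and 1.95 ± 0.19 (adjusted p of 4.86e-09), while COL5A1 fell there. In PC9, where 6 to 35 reads per library lay behind its values, it rose by a log2 change of 1.42 ± 0.38 (adjusted p = 0.00206) and 1.67 ± 0.38 (adjusted p of 0.000388), and the erlotinib call was lost without the first T0 library (0.98, adjusted p = 0.0600). Per kb, COL5A1 was 158 and 194 times COL5A2 at T0 in H1650, 52.7 and 62.8 times with erlotinib and 37.6 and 39.7 times with osimertinib. COL5A3 had 1 read over the 6 PC9 libraries and 4.33 to 5.27 CPM in H1650.

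COL3A1, the chain of type III collagen of distensible tissues such as vessel wall, was read in H1650 only. In H1650 cells, COL3A1 read 12.97 and 12.04 CPM at T0, 7.07 and 6.75 CPM with erlotinib and 19.9 and 19.6 CPM with osimertinib. The order was erlotinib, T0, osimertinib with no overlap, and the log2 changes were −0.85 ± 0.17 (adjusted p = 0.000216) and 0.66 ± 0.15 (adjusted p of 0.00133). COL1A1, the main chain of type I collagen, was read in both lines. COL1A1 in PC9 was at 21.1 and 18.3 CPM at T0, 24.1 and 20.4 CPM with erlotinib and 44.8 and 36.7 CPM with osimertinib. In H1650 cells, COL1A1 read 11.9 and 12.1 CPM at T0, 11.2 and 9.96 CPM with erlotinib and 14.8 and 12.7 CPM with osimertinib. It rose in PC9 with osimertinib, by a log2 change of 1.05 ± 0.12 (adjusted p = 1.9e-08), and was not called in the other 3 comparisons with T0, at 0.18 ± 0.13 (adjusted p of 0.225) with erlotinib in PC9 and −0.18 ± 0.14 (adjusted p of 0.331) and 0.19 ± 0.14 (adjusted p of 0.291) in H1650. Its partner in type I collagen, COL1A2, had 0 to 3 reads per library and 12 in all, where COL1A1 had 214 to 968 per library.

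COL11A2, a type XI chain best known from cartilage, rose in all 4 drug comparisons. COL11A2 in H1650 was at 7.65 and 8.06 CPM at T0, 18.2 and 15.2 CPM with erlotinib and 12.3 and 13.5 CPM with osimertinib. In PC9 cells, COL11A2 read 1.41 and 1.63 CPM at T0, 7.79 and 5.31 CPM with erlotinib and 5.60 and 3.64 CPM with osimertinib. The log2 changes were 2.09 ± 0.25 (adjusted p = 2.49e-08) and 1.62 ± 0.26 (adjusted p of 5.18e-06) in PC9 and 1.09 ± 0.18 (adjusted p of 1.53e-05) and 0.71 ± 0.18 (adjusted p of 0.00215) in H1650, with no overlap between T0 and drug libraries. COL11A1 rose in PC9 from 0.403 and 0.592 CPM at T0 to 2.07 to 2.91 CPM in the 4 drug libraries, by a log2 change of 2.40 ± 0.44 (adjusted p = 3.63e-05) and 2.16 ± 0.45 (adjusted p of 0.000176), and had no read in the 4 H1650 drug libraries. COL27A1, another fibrillar chain, rose in PC9 from 1.87 and 3.31 CPM to 6.83 to 9.99 CPM, by a log2 change of 1.59 ± 0.25 (adjusted p = 2.59e-06) and 1.86 ± 0.25 (adjusted p of 1.73e-07). COL2A1 was unread in PC9 and had 23 reads in H1650, and COL24A1 had 36 and 8.

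COL12A1 had the largest rise in PC9 reads of the fibril-associated (FACIT) chains, which bind to the surface of fibrils. COL12A1 in PC9 was at 32.0 and 37.4 CPM at T0, 150.4 and 170.4 CPM with erlotinib and 218 and 222 CPM with osimertinib. In H1650 cells, COL12A1 read 56.3 and 50.1 CPM at T0, 62.0 and 68.5 CPM with erlotinib and 71.6 and 67.5 CPM with osimertinib. In PC9 it rose by a log2 change of 2.21 ± 0.09 (adjusted p = 6.19e-18) with erlotinib and 2.67 ± 0.09 (adjusted p of 1.04e-19) with osimertinib, from the tenth place per kb at T0 to the fifth with either drug. In H1650 the log2 changes were 0.30 ± 0.09 (adjusted p = 0.00976) and 0.39 ± 0.09 (adjusted p of 0.000956), and the first of these lost its call without the second T0 library (0.21, adjusted p = 0.161) or the second erlotinib library (0.22, adjusted p = 0.140).

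COL16A1 in H1650 was at 64.2 and 63.8 CPM at T0, 34.7 and 31.7 CPM with erlotinib and 47.0 and 43.1 CPM with osimertinib. In PC9 cells, COL16A1 read 3.88 and 4.10 CPM at T0, 10.4 and 8.51 CPM with erlotinib and 13.9 and 15.4 CPM with osimertinib. COL16A1, a FACIT chain found near basement membranes, moved in the same directions as COL4A1, as it fell in H1650 by a log2 change of −0.95 ± 0.10 (adjusted p = 1.14e-08) and −0.51 ± 0.10 (adjusted p of 0.000114) and rose in PC9 by 1.24 ± 0.15 (adjusted p of 2.95e-08) and 1.87 ± 0.14 (adjusted p of 3.57e-12). The groups did not overlap in either line. COL9A3 rose in PC9 from 1.21 and 1.38 CPM to 4.65 to 5.13 CPM and in H1650 from 1.77 and 1.08 CPM to 2.99 and 2.28 with erlotinib and 5.49 and 3.74 with osimertinib, and it shares 45 exon bases with TCFL5 on the other strand. COL9A2 fell in PC9 with erlotinib, by a log2 change of −0.68 ± 0.24 (adjusted p = 0.016), and COL9A1 had no reads. COL21A1 had no reads at T0 in PC9 and rose to 0.358 and 0.390 CPM with erlotinib and 1.06 and 0.673 with osimertinib, at least 2.501-fold and 5.80-fold above the 3-read limit.

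COL8A1, a short-chain collagen of the basement membrane of vessels and cornea, fell more than any other of the 20 chains in PC9. COL8A1 in PC9 was at 33.2 and 37.4 CPM at T0, 4.12 and 4.96 CPM with erlotinib and 5.73 and 6.39 CPM with osimertinib. In H1650 cells, COL8A1 read 15.9 and 16.9 CPM at T0, 10.2 and 10.4 CPM with erlotinib and 12.8 and 13.9 CPM with osimertinib. It fell in PC9 by a log2 change of −2.95 ± 0.14 (adjusted p = 8.58e-17) with erlotinib and −2.54 ± 0.14 (adjusted p of 1.69e-15) with osimertinib, in H1650 by −0.67 ± 0.13 (adjusted p of 0.000152) with erlotinib, and was at −0.30 ± 0.13 (adjusted p of 0.0699) with osimertinib. COL13A1, a transmembrane chain, had 1.11 and 1.38 CPM at T0 in PC9 and no reads in the 4 drug libraries, at least 9.91-fold lower with erlotinib and 8.12-fold lower with osimertinib.

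COL18A1, a basement membrane collagen from which endostatin is cleaved, rose in both lines. COL18A1 in PC9 was at 172 and 159 CPM at T0, 243 and 196 CPM with erlotinib and 265 and 242 CPM with osimertinib. In H1650 cells, COL18A1 read 34.7 and 29.1 CPM at T0, 55.1 and 42.3 CPM with erlotinib and 47.9 and 38.3 CPM with osimertinib. The log2 changes were 0.41 ± 0.11 (adjusted p = 0.00182) and 0.62 ± 0.11 (adjusted p of 1.57e-05) in PC9 and 0.61 ± 0.12 (adjusted p of 0.000207) and 0.44 ± 0.12 (adjusted p of 0.00581) in H1650. In PC9 the erlotinib call was lost without the first erlotinib library (0.24, adjusted p = 0.0764) and in DESeq2 (adjusted p = 0.0768). In H1650 the osimertinib call was lost without the first osimertinib library (0.27, adjusted p = 0.154), without the second T0 library (0.31, adjusted p = 0.104) and in DESeq2 (adjusted p = 0.0823). COL18A1 shares 1401 exon bases with SLC19A1 on the other strand, and SLC19A1, a folate carrier, fell in all 4 comparisons (−1.81 and −1.96 in PC9, −0.51 and −0.46 in H1650). The strand setting of the read counting was not given, so reads of the shared bases may have been counted for either gene.

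COL26A1, a small secreted chain with an EMI domain, rose in all 4 comparisons. COL26A1 in H1650 was at 32.2 and 30.4 CPM at T0, 42.3 and 46.1 CPM with erlotinib and 45.8 and 38.3 CPM with osimertinib. In PC9 cells, COL26A1 read 0.151 and 0.296 CPM at T0, 2.06 and 1.76 CPM with erlotinib and 1.66 and 1.07 CPM with osimertinib. In PC9 3 to 46 reads lay behind each value. The log2 changes were 0.50 ± 0.11 (adjusted p = 0.000844) and 0.42 ± 0.11 (adjusted p of 0.00375) in H1650 and 3.05 ± 0.40 (adjusted p of 1.33e-07) and 2.60 ± 0.44 (adjusted p of 8.02e-06) in PC9. In H1650 the osimertinib call was lost without the first osimertinib library (0.29, adjusted p = 0.124). COL28A1 rose in PC9 from 0.353 and 0 CPM to 0.403 and 0.976 with erlotinib and 1.34 and 1.23 with osimertinib. Its reads were 7 and 0 at T0 and 9 and 25 with erlotinib. The log2 changes of COL28A1 were 1.97 ± 0.75 (adjusted p = 0.0253) with erlotinib and 2.84 ± 0.71 (adjusted p of 0.000994) with osimertinib.

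No reads were found in any library for COL6A5, COL9A1 and COL19A1. In PC9, 8 chains had no reads in the 6 libraries: these 3 and COL2A1, COL3A1, COL14A1, COL22A1 and COL23A1. In H1650, 5 had none: the same 3, COL6A3 and COL25A1, and COL25A1 had a single read in PC9. For each, the depth allowed a level of up to 0.116 to 0.168 CPM per library.

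At T0, 30 of the 34 tested chains differed between the lines, 18 higher and 12 lower in H1650, against 69.6% of all genes called (35.8% higher and 33.8% lower). For chains that passed the filter through 1 line alone such a call follows from the filter. Against the 3-read limit in PC9, COL3A1 was at least 83.5-fold higher in H1650, COL5A3 at least 32.2-fold, COL14A1 at least 28.5-fold, COL15A1 at least 14.5-fold and COL22A1 at least 12.4-fold, and COL6A3 was at least 9.99-fold lower in H1650. Among chains read in both lines, COL4A2 differed by a log2 difference of 9.76 ± 0.17 (adjusted p = 1.19e-26), COL26A1 by 7.09 ± 0.24 (adjusted p of 4.33e-20), COL4A1 by 4.49 ± 0.11 (adjusted p of 1.65e-23), COL16A1 by 4.0015 ± 0.13 (adjusted p of 9.93e-21) and COL5A1 by 3.77 ± 0.08 (adjusted p of 3.72e-24), all higher in H1650. COL4A6 was lower in H1650 by a log2 difference of −5.00 ± 0.17 (adjusted p = 4.14e-20), COL7A1 by −3.86 ± 0.12 (adjusted p of 4.94e-21) and COL18A1 by −2.38 ± 0.12 (adjusted p of 3.27e-16). COL4A3, COL9A3, COL21A1 and COL27A1 were not called.

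The drug-by-line difference, in which the PC9 log2 change is subtracted from the H1650 one, tested directly whether the lines differed in response. It was called for 17 of 34 chains with erlotinib, 6 higher and 11 lower, against 40.8% of all genes (21.1% higher and 19.8% lower), and for 20 with osimertinib, 6 higher and 14 lower, against 41.9% (21.5% higher and 20.5% lower). The most negative values with osimertinib among the 20 chains were those of COL4A3 at a log2 difference of −3.17 ± 0.33 (adjusted p = 5.32e-09), COL4A4 at −2.69 ± 0.22 (adjusted p of 7.06e-11), COL16A1 at −2.38 ± 0.17 (adjusted p of 4.01e-12) and COL12A1 at −2.28 ± 0.13 (adjusted p of 1.79e-14), and the most positive was that of COL8A1 at 2.25 ± 0.19 (adjusted p of 6.88e-11). COL5A2, COL6A2 and COL18A1 were not called with either drug. COL3A1, COL6A3, COL14A1, COL22A1 and COL23A1, each without reads in a line, could not be called in this test. For COL18A1 the log2 difference was 0.21 ± 0.16 (adjusted p = 0.344) with erlotinib and −0.18 ± 0.16 (adjusted p of 0.415) with osimertinib.

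**Figure D4:**
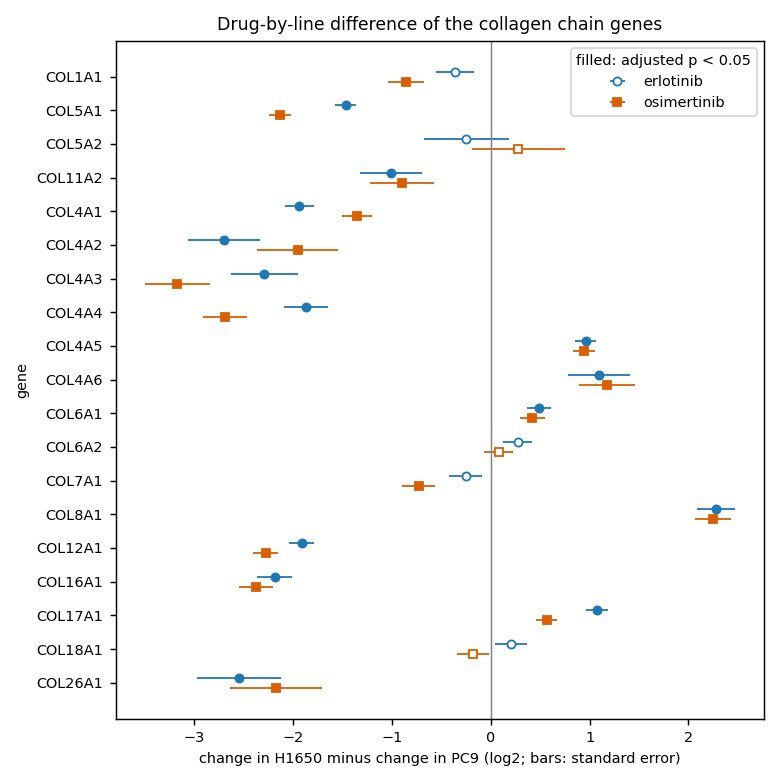
Drug-by-line difference (log2 change in H1650 minus log2 change in PC9) for 19 chains, with erlotinib as circles, osimertinib as squares, standard errors as bars and filled symbols for an adjusted p under 0.05; COL3A1, unread in PC9, is left out. COL4A1 to COL4A4, COL5A1, COL12A1, COL16A1 and COL26A1 lie left of −1 with both drugs, and COL8A1 lies right of 2.

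Set against each other at their different doses, osimertinib gave the higher level for every chain that was called. In PC9, 10 of 34 chains were higher with osimertinib and 0 lower, against 16.6% of all genes called (10.1% higher and 6.41% lower). By DESeq2 the counts were 10 and 0, and at an unadjusted p under 0.05 edgeR gave 14 and 1. The 10 were COL1A1, COL4A3, COL4A4, COL4A6, COL5A1, COL7A1, COL9A2, COL12A1, COL16A1 and COL17A1. COL4A3 differed by a log2 difference of 1.20 ± 0.15 (adjusted p = 9.73e-07), COL17A1 by 1.11 ± 0.08 (adjusted p of 6.67e-11) and COL5A1 by 0.87 ± 0.08 (adjusted p of 1.51e-09). The call of COL4A6 was lost without the first erlotinib library (0.33, adjusted p = 0.182) or the second osimertinib library (0.36, adjusted p = 0.164), and that of COL7A1 without the first osimertinib library (0.24, adjusted p = 0.200) or the second erlotinib library (0.31, adjusted p = 0.0718).

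In H1650, 6 chains were higher with osimertinib and 0 lower, against 8.75% of all genes called (5.02% higher and 3.73% lower), with 7 and 0 by DESeq2 and 11 and 1 at an unadjusted p under 0.05. These were COL3A1 at a log2 difference of 1.51 ± 0.16 (adjusted p = 4.35e-07), COL5A2 at 0.78 ± 0.18 (adjusted p of 0.00459), COL17A1 at 0.60 ± 0.07 (adjusted p of 1.23e-06), COL16A1 at 0.44 ± 0.10 (adjusted p of 0.0039), COL4A1 at 0.43 ± 0.09 (adjusted p of 0.00135) and COL4A2 at 0.31 ± 0.08 (adjusted p of 0.0175). Without the first osimertinib library of H1650 2 calls were left, and COL4A1 (0.28, adjusted p = 0.129), COL4A2 (0.18, adjusted p = 0.424), COL5A2 (0.63, adjusted p = 0.132) and COL16A1 (0.38, adjusted p = 0.0842) lost theirs. Without the first erlotinib library COL4A2 (0.33, adjusted p = 0.0551) and COL5A2 (0.68, adjusted p = 0.0781) were lost, and without the second COL4A2 (0.29, adjusted p = 0.103) and COL16A1 (0.39, adjusted p = 0.0712).

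The genes that modify, fold, trim, cross-link and bind collagen were taken as a list of 43, all tested. In PC9, 11 rose and 22 fell with erlotinib and 13 rose and 16 fell with osimertinib, beside the shares of all genes given above. In H1650, 3 rose and 20 fell with erlotinib and 6 rose and 12 fell with osimertinib. The median log2 fold change over the list was −0.43 with erlotinib and −0.02 with osimertinib in PC9, and −0.36 and −0.13 in H1650.

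All 4 prolyl 4-hydroxylase genes, which make the hydroxyproline that stabilizes the helix, fell in PC9 with erlotinib, against 29.1% of all genes. With osimertinib in PC9, 2 fell and 2 were not called, against 28.7% of all genes lower. In H1650, 3 fell with erlotinib, against 18.5% of all genes. With osimertinib there, 3 fell and 1 rose, against 17.9% lower and 17.8% higher. With erlotinib in PC9, P4HA1 fell by a log2 change of −0.72 ± 0.10 (adjusted p = 3.94e-07) and P4HA2 by −0.72 ± 0.10 (adjusted p of 2.83e-07). With erlotinib in H1650, they fell by −1.15 ± 0.09 (adjusted p of 1e-10) and −1.14 ± 0.09 (adjusted p of 7.2e-11). P4HB, whose product is their shared subunit, read 682 and 661 CPM at T0 and 529 and 517 CPM with erlotinib in PC9, and was at a log2 change of 0.03 ± 0.07 (adjusted p = 0.793) with erlotinib in H1650. P3H2, a prolyl 3-hydroxylase active on basement membrane collagen, fell in all 4 comparisons, from 311 and 313 CPM at T0 to 175 and 185 CPM with erlotinib and 241 and 228 CPM with osimertinib in H1650. Of the other genes listed with the prolyl 3-hydroxylases, CRTAP rose in PC9 with erlotinib by a log2 change of 0.37 ± 0.07 (adjusted p = 5.69e-05). PPIB, a prolyl isomerase, fell there by −0.59 ± 0.08 (adjusted p of 3.64e-07).

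Of the lysine-modifying enzymes, PLOD2, the lysyl hydroxylase of the chain ends, fell in H1650 from 683 and 709 CPM to 251 and 266 CPM with erlotinib and 425 and 411 CPM with osimertinib. PLOD1 fell in PC9 by a log2 change of −0.96 ± 0.08 (adjusted p = 3.01e-11) and COLGALT1, a collagen galactosyltransferase, by −1.15 ± 0.07 (adjusted p of 6.83e-14) with erlotinib. SERPINH1, the chaperone HSP47, fell with erlotinib in both lines, by a log2 change of −0.52 ± 0.09 (adjusted p = 7.64e-06) in PC9 and −0.30 ± 0.09 (adjusted p of 0.00767) in H1650, and was at −0.10 ± 0.09 (adjusted p of 0.32) and 0.02 ± 0.09 (adjusted p of 0.905) with osimertinib. MIA3, which helps to load collagen for export, rose in PC9 by a log2 change of 0.66 ± 0.08 (adjusted p = 3.78e-08) and 0.73 ± 0.08 (adjusted p of 5.84e-09), and FKBP10, a prolyl isomerase chaperone, was at 0.02 ± 0.08 (adjusted p of 0.852) and 0.20 ± 0.08 (adjusted p of 0.0247).

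Other listed genes act outside the cell. BMP1, the procollagen C-proteinase, read 38.2 and 34.6 CPM at T0 in PC9, 136 and 115 CPM with erlotinib and 185 and 167 CPM with osimertinib. Its enhancer PCOLCE rose in PC9 by a log2 change of 1.80 ± 0.17 (adjusted p = 4.16e-10) and 1.70 ± 0.17 (adjusted p of 1.58e-09), while the related PCOLCE2 went from 4.39 and 4.20 CPM to at most 0.179 CPM. LOXL4, a lysyl oxidase that starts cross-links, rose in PC9 from 0.958 and 1.83 CPM to 47.1 and 51.4 CPM with erlotinib and 87.2 and 92.4 CPM with osimertinib. LOXL2 rose in PC9 with erlotinib by a log2 change of 1.13 ± 0.08 (adjusted p = 3.94e-13) and fell in H1650 by −0.58 ± 0.07 (adjusted p of 2.74e-07), and LOX fell with erlotinib in both, by −1.73 ± 0.24 (adjusted p of 4.1e-07) and −0.64 ± 0.14 (adjusted p of 0.000775).

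Among receptors, ITGA2, the collagen-binding integrin subunit of epithelia, fell in PC9 from 366 and 405 CPM at T0 to 24.8 and 28.5 CPM with erlotinib and 27.3 and 28.9 CPM with osimertinib. In H1650 it read 60.4 and 57.3 CPM at T0 and was at a log2 change of −0.10 ± 0.09 (adjusted p = 0.429) with erlotinib and −0.46 ± 0.09 (adjusted p of 0.000214) with osimertinib. Its partner ITGB1 fell in all 4 comparisons, by a log2 change of −0.79 ± 0.07 (adjusted p = 2.47e-10) with erlotinib in PC9 and −0.34 ± 0.07 (adjusted p of 0.000477) in H1650. DDR1, a receptor tyrosine kinase for collagen, rose in PC9 by a log2 change of 0.32 ± 0.07 (adjusted p = 0.000427) and 0.63 ± 0.07 (adjusted p of 1.92e-08).

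**Figure D5:**
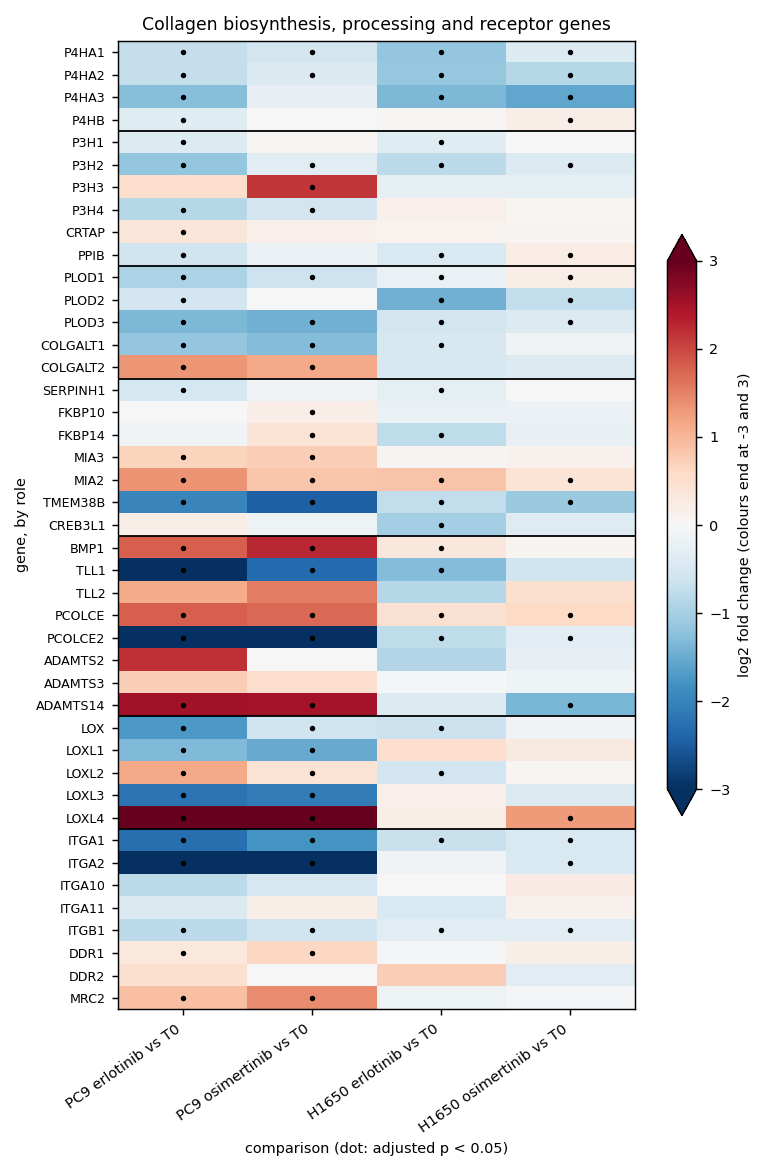
Log2 fold change against T0 of the 43 collagen biosynthesis, processing and receptor genes (rows, by role) in the 4 drug comparisons (columns), with a dot where the adjusted p was under 0.05 and colors that end at −3 and 3. LOXL4 is dark red and ITGA2 and PCOLCE2 are dark blue in PC9 with both drugs, and the prolyl 4-hydroxylase rows at the top hold no called rise except that of P4HB in H1650 with osimertinib.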

How the data were processed

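Poly(A) RNA of 12 libraries, 2 for each of 6 groups, was sequenced, and samples were grouped by their labels. Reads were run through DolphinNext by the authors, who deposited featureCounts read counts per gene as whole numbers without normalization, with each gene's length in bases. The submitters' processing notes name DESeq2 and the build GRCh38; the aligner, annotation and strand setting were not given in the sources used here. All 12 columns of counts were matched to samples, leaving 0 unmapped.

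With edgeR 4.0.16 under R 4.3.3, the filter by group kept 19108 genes, libraries were scaled by TMM, and a quasi-likelihood model of the 6 groups was fitted to all 12 libraries (6 residual and 20.7 prior degrees of freedom). Contrasts compared each drug with T0 in each line, the response between lines, the drugs, and the lines at T0. A call meant an adjusted p under 0.05, with Benjamini-Hochberg adjustment over all tested genes. Normalized CPM (counts per 1000000) used the TMM-scaled library size, and CPM per kb the deposited length. The standard error of a log2 fold change was taken from the test's F value. The 3-read limits cover counting error only, whereas the S.D. and standard errors include variation between replicates. With 2 libraries a group the S.D. is itself imprecise. The code was tested on simulated counts.

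Chains with a mean of at least 10 CPM in at least 1 group (20) are given library by library, the rest by counts, ranges and name; for each role of the list of 43 pathway genes the 3 with the highest mean CPM are named. Chains outside this rule that are given with values, such as COL6A3, COL9A3, COL11A1, COL13A1, COL21A1, COL27A1 and COL28A1, were added once their values had been seen. The members and lists were chosen with earlier results of these data known. Alternatives were DESeq2 1.42.0, RLE scaling, 2 other filters, each line fitted alone, a replicate block and leaving out each library. They were followed chain by chain for the 20 chains only. Calls of other chains, such as COL6A3, COL9A2 and COL13A1, were not checked in this way. Gene positions are from GENCODE 29 and starts and promoter sequences from RefSeq (GRCh38.p14).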

Additional observations from a re-analysis of the deposited data

Results flagged for a closer look

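The response to drug differed between the lines for these chains by the test of the drug-by-line difference itself (edgeR's quasi-likelihood test, Benjamini-Hochberg adjustment), given as the log2 change in H1650 minus that in PC9, with 2 libraries a group. With erlotinib the positive differences were those of COL8A1 (2.28), COL4A6 (1.10), COL17A1 (1.08), COL4A5 (0.96) and COL6A1 (0.49). The negative ones were those of COL4A2 (−2.70), COL26A1 (−2.55), COL4A3 (−2.29), COL16A1 (−2.19), COL4A1 (−1.94), COL12A1 (−1.91), COL4A4 (−1.87), COL5A1 (−1.47) and COL11A2 (−1.01). The erlotinib value of COL4A6 was 0.29 (adjusted p = 0.662) without the second erlotinib library of H1650. That of COL11A2 lost its call without the first T0 library (−0.91, adjusted p = 0.0563) or the first erlotinib library of PC9 (−0.71, adjusted p = 0.0772).

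With osimertinib the positive differences were those of COL8A1 (2.25), COL4A6 (1.18), COL4A5 (0.94), COL17A1 (0.57) and COL6A1 (0.42). The negative ones were those of COL4A3 (−3.17), COL4A4 (−2.69), COL16A1 (−2.38), COL12A1 (−2.28), COL26A1 (−2.18), COL5A1 (−2.13), COL4A2 (−1.96), COL4A1 (−1.35), COL11A2 (−0.90), COL1A1 (−0.86) and COL7A1 (−0.73). The value of COL6A1 lost its call without the first osimertinib library (0.29, adjusted p = 0.0852) or the second T0 library of H1650 (0.34, adjusted p = 0.0515). COL11A2 lost its call in DESeq2 (adjusted p = 0.0523) and without the first T0 library (−0.80, adjusted p = 0.104) or the first osimertinib library of PC9 (−0.54, adjusted p = 0.256), and without the first osimertinib library (−0.82, adjusted p = 0.0619) or the second T0 library of H1650 (−0.86, adjusted p = 0.0501).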

How the results depend on the processing

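Requiring at least 10 counts in every library, which tests fewer chains, left 15 chains called for erlotinib in PC9 and 15 between the lines at T0. Over all genes, 13076 were tested under that filter. Of them, 9493 were called for erlotinib in PC9 and 9873 between the lines at T0. Leaving out 1 library at a time gave 22 to 26 calls for erlotinib and 22 to 25 for osimertinib in PC9, 15 to 18 and 12 to 17 in H1650, 17 to 20 and 18 to 22 for the drug-by-line differences with erlotinib and osimertinib, 9 to 11 and 2 to 8 for osimertinib against erlotinib in PC9 and H1650, and 27 to 31 between the lines at T0. Leaving out a library of a compared group left that group with 1 library and lowered the calls over all genes in every comparison. The lower counts are thus not particular to the collagen chains. In H1650, osimertinib against erlotinib had its fewest calls without the first osimertinib library, among the chains and over all genes. With 2 numbers and no label of a shared batch, replicate numbers were not taken as pairing the samples (deviations of same-numbered libraries correlated between groups from 0.0003 to 0.380). With the replicate block, osimertinib against erlotinib in H1650 gave 10 calls. Over all 19108 genes the block gave 2670 calls in that comparison, against 1672 without it. The 9 counts of calls were otherwise within 1.5 times those reported. Some log2 values, none of them called, changed sign. For COL4A5 with osimertinib in PC9 the value was 0.0302 under the 10-count filter and −0.0974 to 0.0554 with a library left out. For COL4A6 with osimertinib in H1650 it was −0.0062 in DESeq2, −0.0061 with RLE scaling, −0.0029 without the filter and −0.0678 to 0.0977 with a library left out. The other ranges with a library left out were −0.2632 to 0.0197 for COL6A1 and −0.2674 to 0.0574 for COL6A2 with osimertinib in H1650. For the drug-by-line difference they were −0.8827 to 0.1899 for COL5A2 with erlotinib, and −0.3563 to 0.7175 for COL5A2 and −0.0722 to 0.2644 for COL6A2 with osimertinib. For osimertinib against erlotinib in H1650 they were −0.0344 to 0.2484 for COL6A1, −0.0304 to 0.2223 for COL6A2, −0.2729 to 0.1399 for COL7A1, −0.348 to 0.0224 for COL18A1 and −0.2027 to 0.0517 for COL26A1. The cause was not tested. Depth limited chains such as COL4A2, COL5A2 and COL26A1 in PC9, with 122, 140 and 155 reads over the 6 libraries, and chains without reads in a line.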
